A study of Mus musculus with 20 samples.

Results

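Wild-type MPP2 were compared with wild-type MPP3, both multipotent progenitor populations of mouse bone marrow. Such cells can still form the blood lineages but have lost the long-lasting self-renewal of the long-term haematopoietic stem cell (LT-HSC). The comparison uses 3 WT MPP2 and 4 WT MPP3 libraries, 7 of the 20 libraries of the series, and each library was placed in its group by the genotype and population in its sample name. All libraries came from bone marrow of C57BL/6 mice aged 8 weeks. Cells were sorted on a BD FACSAria III, and RNA libraries were made with the Nextera XT kit. WT mice carried intact Hopx, the gene for a small homeodomain-only protein that does not bind DNA itself and works through partner proteins. KO mice were Hopx-knockout, and 3 KO MPP2 and 3 KO MPP3 libraries were used as a second set, with the 4 WT LT-HSC libraries as a further level to compare. The labels do not say which allele was used, what antibodies defined the gates, or whether animals were pooled. They also do not say which libraries share an animal, so every p-value here measures only the spread between these libraries, which may be in part technical.

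As background, MPP2 is known as the progenitor that leans to platelets and red cells, and MPP3 as the one that leans to granulocytes and macrophages. Megakaryocytes, the parents of platelets, make adhesion receptors of the glycoprotein Ib-IX-V complex and store clotting proteins and chemokines in granules. Their genes are already partly active in a fraction of stem cells and early progenitors. A separate programme, lymphoid priming, is marked by the cytokine receptor gene Flt3 and by genes of antigen receptor assembly. The values below do not settle whether the WT MPP3 of this series match the description of MPP3. None of the granule, mature neutrophil or monocyte and macrophage genes listed below passed, whereas Flt3 was higher in WT MPP3.

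Each library held between 11163345 and 15153309 reads in genes, and between 15826 and 20831 genes had at least 1 read. The values are read counts per gene that were divided by 1 size factor per library before deposit, called scaled values here. Of 45706 gene identifiers, 16999 were kept after a filter on low values and tested with limma on log2(scaled value + 1). The added 1 understates the change of genes that are low in all libraries. Where only some libraries of a group are near 0, the fold change can exceed the ratio of group means. Levels are not per length and are compared only within a gene. Bulk RNA cannot tell fewer cells of a type from less RNA per cell. Hopx itself, the targeted gene, was at 0 in all 6 KO MPP2 and KO MPP3 libraries, against 61.2, 11 and 40.2 in WT MPP2 against 23.2, 42.7, 30.3 and 11.7 in WT MPP3. The Hopx difference between WT MPP2 and WT MPP3 did not pass (log2 fold change 0.30, limma adjusted p = 0.982).

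In immunoglobulin and mitochondrial RNA 1 library stood apart from its group. WT MPP2 replicate 3 carried the immunoglobulin genes Igkc at 267435, Ighm at 176989 and Jchain at 140605, which together made up 3.80% of its summed scaled values, against 0.00148% to 0.0764% in the other 6 libraries. Mzb1, an antibody-secretion gene, was at 1185 there and at 0 in the other WT MPP2 libraries, whereas the B-cell factor gene Pax5 was at 0 in it. Mitochondrial genes took 5.84% of its reads, against 1.62% to 4.77% in the other 6. Across the genes tested, its log2 values correlated most with WT MPP3 replicate 2 (Pearson r = 0.904 across genes, which are not independent) and less with WT MPP2 replicates 1 and 2 (0.855 and 0.866). WT MPP3 replicate 3 also lay apart, at 0.858, 0.845 and 0.874 with replicates 1, 2 and 4 of its group. Those 3 libraries correlated with each other at 0.893 to 0.931. WT MPP3 replicate 3 had the fewest genes with a read of the 7 libraries (15826). WT MPP2 replicate 3 and WT MPP3 replicate 2 are also the 2 of the 7 libraries that read as female by Xist and Y-linked genes, and their titles carry numbers of the 52 to 54 range, while the others have higher numbers. The part of cell admixture, sex or processing in what follows was not tested, and the main results are given with and without WT MPP2 replicate 3.

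The sorted populations were first checked against their surface antigen genes, and a difference in an antigen used for sorting is a check rather than a result. Slamf1, which encodes CD150, the SLAM antigen commonly used to separate MPP2 from MPP3, had 606, 407 and 512 in WT MPP2 against 10.1, 20.1, 0 and 21.6 in WT MPP3. All WT MPP2 libraries lay far above all WT MPP3 libraries, and the log2 fold change was 5.88 ± 1.02 (SE, adjusted p in limma = 0.0131). Cd48, a second SLAM antigen commonly described on both populations, had 1626, 2003 and 7347 in WT MPP2 against 6726, 7860.2, 6574 and 6148 in WT MPP3. It was present in all 7 libraries and did not pass (log2 fold change -1.24, limma adjusted p = 0.824). Kit, the stem cell factor receptor, did not pass either and had 2707, 2374 and 3686 in WT MPP2 against 2874, 3735, 1749 and 2717 in WT MPP3. Ly6a, which encodes Sca-1, had 108, 82.1 and 3451 in WT MPP2 against 962, 3572, 1052 and 1039.7 in WT MPP3. Its 2 lowest libraries were WT MPP2 replicates 1 and 2, while replicate 3 lay in the range of WT MPP3, and it did not pass (limma adjusted p = 0.389). Of 10 antigen genes, Slamf1 alone passed as higher and Flt3 alone as lower in WT MPP2. With WT MPP2 replicate 3 left out, 2 passed as higher and 4 as lower, and Ly6a was among those lower (log2 fold change -3.87, limma adjusted p = 2.34e-04).

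WT MPP2 and WT MPP3 differed in 74 of 16999 genes at a limma adjusted p under 0.05, which is 0.435% of the genes tested. Of these, 44 were higher in WT MPP2 (0.259% of genes) and 30 were lower (0.176%). The higher genes included 14 of the platelet and megakaryocyte list, and the lower genes included Flt3 and Sox4 of the lymphoid priming list. Flt3 is also among the antigen genes checked above. In all 74 genes every WT MPP2 library lay on one side of every WT MPP3 library, which held for 1352 genes, or 7.95%, of all those tested. Log2 differences ranged in size between 0.77 and 9.31 among the higher genes, with a median of 3.04, and between 1.12 and 6.38 among the lower genes, with a median of -2.0, whereas the median over all genes tested was -0.0048. Library total scaling shifted that median to -0.05 and TMM scaling to -0.0082.

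These counts rest on the spread shared by all 20 libraries. With only the 7 WT MPP2 and WT MPP3 libraries in the fit, 0 genes passed limma's adjusted threshold and 1325 had an unadjusted p under 0.05, against 1631 (9.59%) in the fit of 20. Without WT MPP2 replicate 3, 418 genes passed, 115 higher and 303 lower, and 71 of the 74 were among them. Without WT MPP2 replicate 1 only 9 passed, and without replicate 2 only 25. Without the libraries of the 52 to 54 title range 270 passed, and with sex as a covariate 99 did. With the title range as a covariate 62 passed, of which 39 were among the 74, and the calls of Slamf1, Rab27b, Gp5, Tek, Ehd3, Slc16a7, Fgd2, Lcp1, Gm15629, Ckap4, Plppr3 and Sh2d5 were lost. With limma voom weights the balance turned to 18 higher and 38 lower, and 41 of these 56 were among the 74. Voom lost the calls of Cavin2, Pf4, Treml1, Vwf, Rab27b, Gp5, F2rl2, Ehd3, Tuba8, Gm15856, Fhl1, Tek, Slc16a7, Lck and Ckap4.

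The platelet and megakaryocyte list holds genes used as markers of that lineage, and membership was not checked for mouse platelets. Its members were chosen with earlier results of these data known. Its counts are therefore a description rather than an independent test. Of its 32 genes, 30 passed the filter on low values, and 14 of them rose in WT MPP2 while none fell, against 0.259% of all genes that rose. The median log2 fold change of the 30 was 2.78. Without WT MPP2 replicate 3, 16 rose, with the title range as a covariate 11, and with voom weights, without WT MPP2 replicate 1 or with edgeR on 18 libraries 4. Groups did not overlap, with WT MPP2 above, for 17 of the 30, against 4.04% of all genes tested. WT MPP3 lay above without overlap for 2, against 3.92% of all genes, and 4 of the 30 had a fold change below 0. Myl9 was at 0 in all 7 libraries, and Gp6, the platelet collagen receptor gene, was read in 1 library.

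**Figure D1:**
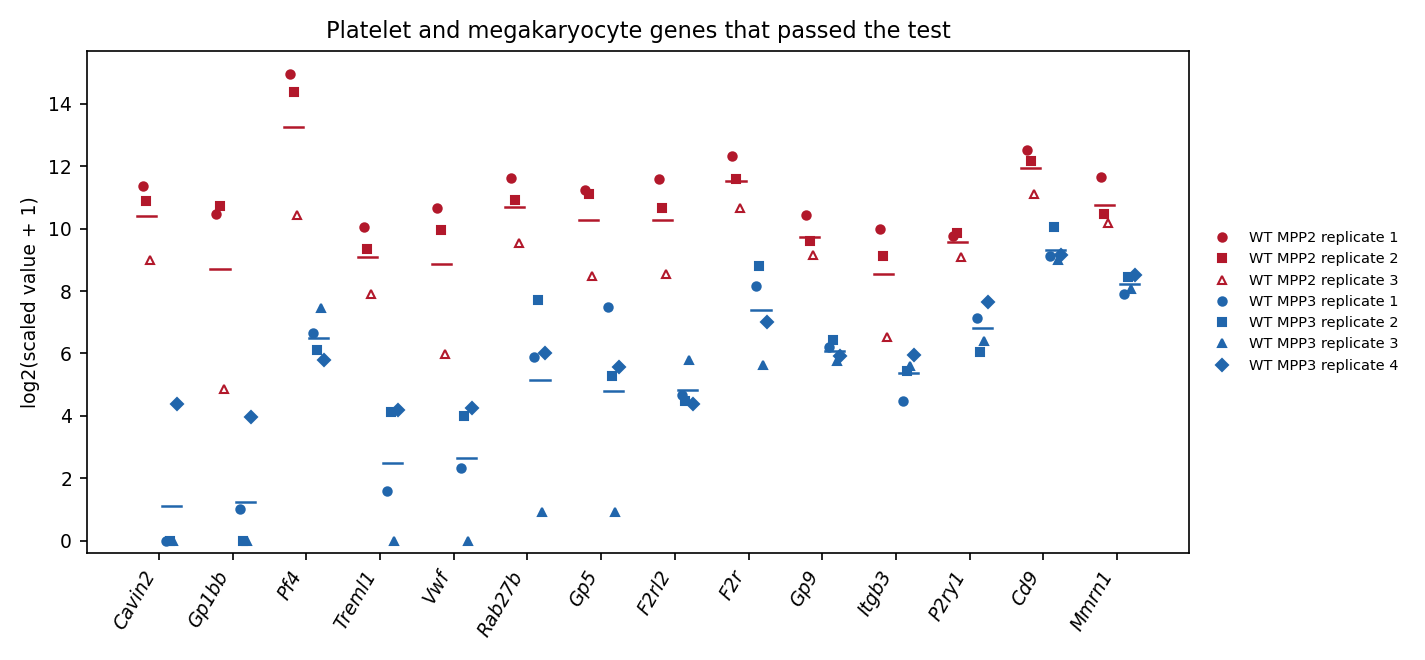
Log2(scaled value + 1) of the 14 platelet and megakaryocyte genes that rose in WT MPP2 (red, n = 3, left of each pair) against WT MPP3 (blue, n = 4), ordered by fold change. Each symbol is 1 library, bars are group means and the open triangle is WT MPP2 replicate 3, which is the lowest of the red symbols in all 14 genes and above every blue symbol.

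The upstream sequences of 4 genes are printed as examples of the calls described next: Cavin2 and Pf4 for large rises, Gp9 for a rise that was lost in no other setting than the fit of 7 libraries, and Flt3 for a fall. Each is the 250 bases before the RefSeq gene start on GRCm38.p6, read 5′ to 3′ on the gene's own strand. Capitals mark GATAA or its reverse complement TTATC, the core letters bound by GATA factors, and GGAAGT or its reverse complement ACTTCC, letters bound by ETS factors.
Cavin2: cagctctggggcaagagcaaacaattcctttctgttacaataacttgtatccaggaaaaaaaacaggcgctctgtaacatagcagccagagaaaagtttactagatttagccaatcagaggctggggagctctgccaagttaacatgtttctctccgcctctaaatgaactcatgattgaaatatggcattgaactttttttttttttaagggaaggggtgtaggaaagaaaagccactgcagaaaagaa
Pf4: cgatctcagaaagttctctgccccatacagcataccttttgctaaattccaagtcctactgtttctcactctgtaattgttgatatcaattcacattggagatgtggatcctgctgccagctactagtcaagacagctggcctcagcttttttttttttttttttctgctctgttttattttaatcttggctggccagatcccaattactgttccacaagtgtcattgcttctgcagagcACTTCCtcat
Gp9: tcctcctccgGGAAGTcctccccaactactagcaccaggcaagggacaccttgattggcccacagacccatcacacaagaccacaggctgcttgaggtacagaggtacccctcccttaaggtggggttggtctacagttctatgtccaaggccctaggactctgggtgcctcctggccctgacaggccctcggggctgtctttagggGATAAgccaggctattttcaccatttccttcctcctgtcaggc
Flt3: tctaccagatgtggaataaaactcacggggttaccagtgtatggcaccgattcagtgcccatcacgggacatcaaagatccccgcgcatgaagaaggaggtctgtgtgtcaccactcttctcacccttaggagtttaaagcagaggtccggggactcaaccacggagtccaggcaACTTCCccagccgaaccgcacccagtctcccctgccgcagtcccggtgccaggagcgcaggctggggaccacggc

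Cavin2 lies at chr1:51288876-51289125 on the plus strand, Pf4 at chr5:90772185-90772434 on the plus strand, Gp9 at chr6:87777820-87778069 on the plus strand and Flt3 at chr5:147400490-147400739 on the minus strand, each window being given. The Gp9 window held 1 GATAA and 1 GGAAGT match, the Pf4 and Flt3 windows 1 ACTTCC match each, and the Cavin2 window none of either. Of the 44 genes higher in WT MPP2, 33 had a window in the table, and 6 of these (18.2%) held the GATAA motif on either strand and 6 (18.2%) the GGAAGT motif. Over the 27025 genes of the table the shares were 23.0% and 20%. Of the 30 lower genes 20 had a window, of which 3 (15%) held GATAA and 7 (35.0%) GGAAGT. Mmrn1, Gp5 and Gp9 held both motifs among the higher genes, which is 3 of 33 (9.09%) against 4.47% of the table. A match is a description of letters and says nothing of binding.

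Among platelet genes of granules, secretion and membrane coats, Cavin2, a coat protein of caveolae that is abundant in platelets, had 2634, 1883 and 504 in WT MPP2 against 0, 0, 0 and 19.8 in WT MPP3. Reads were listed at 0 in 3 of the 4 WT MPP3 libraries, so its log2 fold change of 9.31 ± 0.94 (SE, adjusted p in limma = 9.87e-05) depends on the pseudocount. Pf4, the platelet factor 4 chemokine of alpha granules, had 31814, 21478 and 1374 in WT MPP2 against 101, 67.8, 174 and 54.1 in WT MPP3. WT MPP2 replicates 1 and 2 were more than an order of magnitude above replicate 3, which was still the lowest library above all WT MPP3. Its log2 fold change was 6.76 ± 1.11 (SE, adjusted p in limma = 0.00883).

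Vwf encodes von Willebrand factor, the clotting protein that tethers platelets, and had 1629, 992 and 62.6 in WT MPP2 against 4.03, 15.1, 0 and 18 in WT MPP3. Replicate 3 of WT MPP2 lay closer on the log2 scale to the WT MPP3 mean than to its own group's other libraries, and the log2 fold change was 6.22 ± 1.06 (SE, adjusted p in limma = 0.0114). Treml1, an alpha granule receptor of platelets, had 1052, 650.5 and 241 in WT MPP2 against 2.02, 16.3, 0 and 17.1 in WT MPP3, with a log2 fold change of 6.63 ± 0.99 (SE, adjusted p in limma = 0.00415). Rab27b, a small GTPase of platelet granule release, had 3141, 1955 and 741 in WT MPP2 against 58.5, 211, 0.891 and 64 in WT MPP3, with a log2 fold change of 5.55 ± 1.05 (SE, adjusted p in limma = 0.0257). In both genes WT MPP3 replicate 3 had at most 1 read. Mmrn1, the multimerin that binds factor V in granules, was read in every library and had 3261, 1403 and 1171 in WT MPP2 against 240.1, 346, 268 and 364 in WT MPP3. Its log2 fold change of 2.54 ± 0.32 (SE, adjusted p in limma = 9.11e-04) was smaller, and the lowest WT MPP2 library still lay well above the highest WT MPP3 library.

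Receptors of the platelet surface rose together with them. Gp9, a subunit of the glycoprotein Ib-IX-V receptor for Vwf, had 1374, 779 and 564 in WT MPP2 against 72.6, 85.4, 53.5 and 59.5 in WT MPP3. Even its lowest WT MPP2 library was well above the highest WT MPP3 library, and the log2 fold change of 3.64 ± 0.35 (SE, adjusted p in limma = 8.61e-05) had the smallest adjusted p of all genes tested. Gp5, another subunit of this receptor, had 2433, 2232 and 360.3 in WT MPP2 against 179, 37.7, 0.891 and 46 in WT MPP3, with a log2 fold change of 5.48 ± 1.09 (SE, adjusted p in limma = 0.0332). Gp1bb, the beta chain, passed as well with a log2 fold change of 7.45 ± 1.5 (SE, adjusted p in limma = 0.0348) but overlaps Sept5 on the same strand in the annotation. Gp1ba, the chain that contacts Vwf, had 323, 377 and 30.7 in WT MPP2 against 34.3, 67.8, 0 and 9.02 in WT MPP3. Its groups overlapped through replicate 3 and it did not pass (limma adjusted p = 0.268).

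Among the thrombin receptors, F2r (PAR1) had 5182, 3094 and 1617 in WT MPP2 against 285, 446, 49 and 128 in WT MPP3, with a log2 fold change of 4.13 ± 0.54 (SE, adjusted p in limma = 0.00116). F2r is a member of the platelet and megakaryocyte list, but its rise cannot by itself be read as a trait of mouse platelets. F2rl2 (PAR3), the thrombin cofactor of mouse platelets, had 3091, 1625 and 373 in WT MPP2 against 24.2, 21.4, 54.3 and 19.8 in WT MPP3, with a log2 fold change of 5.44 ± 0.79 (SE, adjusted p in limma = 0.00358). F2rl2 lies inside Iqgap2 on the other strand, and since no source used here states a strand setting, reads of such pairs cannot be told apart. F2rl3 (PAR4), the signalling receptor of mouse platelets, had 536, 372 and 664 in WT MPP2 against 289, 489, 306 and 392 in WT MPP3, and its groups overlapped.

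Itga2b, which encodes the integrin CD41, had 9695, 4639 and 934 in WT MPP2 against 393, 297, 1824 and 303 in WT MPP3. WT MPP3 replicate 3 lay above WT MPP2 replicate 3, and the log2 difference of 2.78 did not pass (limma adjusted p = 0.123), although it did without WT MPP2 replicate 3 (limma adjusted p = 0.00875). Its partner Itgb3, the ADP receptor gene P2ry1 and the tetraspanin gene Cd9 did pass, at log2 fold changes of 3.20, 2.78 and 2.62.

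Genes outside the platelet list also rose. Ehd3, an ATPase of endocytic recycling, had 914, 763 and 102 in WT MPP2 against 0, 51.5, 0.891 and 7.21 in WT MPP3, with a log2 fold change of 6.28 ± 1.27 (SE, adjusted p in limma = 0.0365). Tek, the angiopoietin receptor TIE2 of stem cells and endothelium, had 739.6, 419 and 333 in WT MPP2 against 97.8, 66.6, 8.91 and 68.5 in WT MPP3, with a log2 fold change of 3.34 ± 0.67 (SE, adjusted p in limma = 0.0332). Tek was the 1 of 20 stem cell genes that passed, and that list's median log2 fold change was -0.21. The list had 3 higher and 5 lower genes and a median of -0.44 without WT MPP2 replicate 3. Fhl1, a LIM-domain protein of muscle and other tissues, had 559, 276 and 288 in WT MPP2 against 18.2, 41.5, 22.3 and 47.8 in WT MPP3, with a log2 fold change of 3.52 ± 0.48 (SE, adjusted p in limma = 0.00165).

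Tuba8, an alpha-tubulin, had 3599, 3291 and 751 in WT MPP2 against 192, 111, 236 and 111 in WT MPP3, with a log2 fold change of 3.75 ± 0.68 (SE, adjusted p in limma = 0.0192). The antisense gene Gm15856 lies on the other strand of Tuba8 and had 876, 736 and 243 in WT MPP2 against 56.5, 32.7, 61.5 and 22.5 in WT MPP3, with a log2 fold change of 3.72 ± 0.65 (SE, adjusted p in limma = 0.0143), which cannot be told apart from Tuba8. The same holds for Gm26728 and Cd9, and Cd9-ps is a processed pseudogene that may share reads with Cd9. Named after their values were seen, Apoe (log2 fold change 2.62 ± 0.27 (SE, adjusted p in limma = 9.87e-05)), the lipid carrier, and Tgfbr3 (2.88 ± 0.33 (SE, adjusted p in limma = 3.17e-04)), the TGF-beta co-receptor betaglycan, were among the smallest adjusted p of all. Apoe had 12224, 14590.4 and 11445 in WT MPP2 against 3134, 1753, 2426 and 1366 in WT MPP3, and Tgfbr3 had 677, 925 and 817 in WT MPP2 against 125, 55.3, 135 and 142 in WT MPP3. In both genes replicate 3 of WT MPP2 sat with the rest of its group. Gm10419, a long noncoding gene, had 119, 107 and 56.7 in WT MPP2 and 0 reads in WT MPP3, and was at least 124-fold higher in WT MPP2 when set against a floor of 3 reads over the group.

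Transcription factors of the megakaryocyte and red-cell branch did not pass as a group. Of 18 genes none passed by limma, with a median log2 fold change of 0.10. An unadjusted limma p under 0.05 was reached by 8, against 9.59% of all genes tested, while 3 rose by DESeq2 and none passed by edgeR. Without WT MPP2 replicate 3, 4 rose. Fold changes were above 0 for 9 of the 18 and below 0 for the other 9, and the genes named next all leaned to WT MPP2. Gata1, the factor that drives both branches, had 3708, 4545 and 877 in WT MPP2 against 1256, 12.6, 0 and 634 in WT MPP3. WT MPP3 replicate 1 exceeded WT MPP2 replicate 3, and the log2 difference of 5.42 did not pass (limma adjusted p = 0.17). Gata2, the earlier GATA factor, had 6015, 3539.5 and 2416 in WT MPP2 against 1307, 1229, 2614 and 1257 in WT MPP3 (limma adjusted p = 0.0747), and Gfi1b, a repressor needed for platelets and red cells, had 2852, 2857 and 1209.7 in WT MPP2 against 1148, 564, 519 and 711 in WT MPP3 (limma adjusted p = 0.0716). Gfi1b groups did not overlap, while WT MPP3 replicate 3 carried more Gata2 than WT MPP2 replicate 3. Both passed without WT MPP2 replicate 3 (limma adjusted p = 0.00875 for Gata2 and 0.00682 for Gfi1b).

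Red-cell genes spread widely among the WT MPP3 libraries. Of the 28 genes of the erythroid and heme list, 27 were kept, 1 rose and none fell, with a median log2 fold change of 0.66. The 1 was Icam4, a red-cell adhesion molecule, at 1418, 1563 and 834 in WT MPP2 against 375, 176, 184 and 206 in WT MPP3 (log2 fold change 2.45 ± 0.37 (SE, adjusted p in limma = 0.00508)). Klf1, the master regulator of red-cell genes, had 1088, 4793 and 724 in WT MPP2 against 2111, 8.8, 0 and 1041 in WT MPP3. Car1, a carbonic anhydrase of early red-cell progenitors, had 1989, 66130.0 and 7708 in WT MPP2 against 19904, 0, 0 and 14105 in WT MPP3. Both genes were high in WT MPP3 replicates 1 and 4 and near or at 0 in WT MPP3 replicates 2 and 3, so the groups overlapped and neither passed (limma adjusted p = 0.385 for Klf1 and 0.687 for Car1). Over the list, WT MPP3 replicates 1 and 4 lay above replicates 2 and 3 in 18 of 27 genes. Such positions were not counted over all genes tested, so this count cannot be called particular to red-cell genes.

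Primary granule genes were also higher in WT MPP3 replicates 1 and 4 than in replicates 2 and 3, in 8 of 11 genes, while mature neutrophil genes lay the other way. Mpo, the myeloperoxidase of primary granules, had 22559, 105 and 41133 in WT MPP2 against 106387, 13394, 17304 and 90037 in WT MPP3. Elane, neutrophil elastase, had 6105, 2 and 14769 in WT MPP2 against 9331, 2.51, 51.7 and 8221 in WT MPP3. WT MPP2 replicate 2 was the lowest library for both, WT MPP3 replicates 1 and 4 exceeded replicates 2 and 3, and neither passed (limma adjusted p = 0.738 for Mpo and 0.982 for Elane). None of 11 primary granule genes, 13 mature neutrophil genes or 23 monocyte and macrophage genes passed by limma, edgeR or DESeq2, with median log2 fold changes of -0.87, -0.83 and -0.11. An unadjusted limma p under 0.05 was reached by 3, 0 and 5 of them, against 9.59% of all genes tested. These medians were -1.35, -0.18 and -0.97 without WT MPP2 replicate 3, and 1 primary granule gene fell. S100a8, a calprotectin subunit of mature neutrophils, had 60.3, 3607 and 549 in WT MPP2 against 127, 10521, 9036 and 33.4 in WT MPP3, and was high where Elane was low. In 8 of the 13 mature neutrophil genes WT MPP3 replicates 1 and 4 lay below replicates 2 and 3. These positions were not counted over all genes tested, so neither pattern can be called particular to granule or neutrophil genes.

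**Figure D2:**
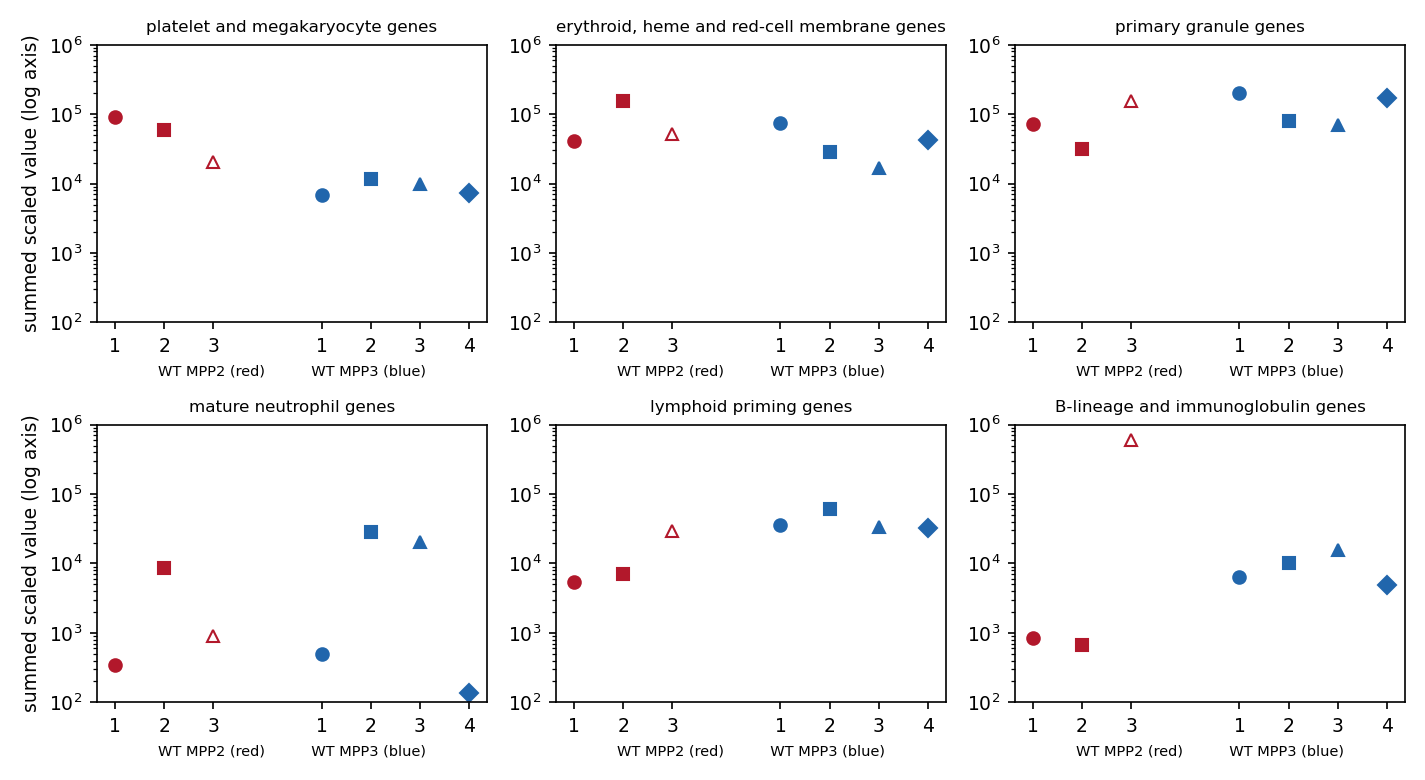
Summed scaled value (log axis) of all members of 6 gene lists in each WT MPP2 library (red, left, n = 3) and WT MPP3 library (blue, right, n = 4), with replicate numbers below. Platelet sums separate the groups, and so do lymphoid priming sums, at most 29026 in WT MPP2 and at least 32305 in WT MPP3. Red-cell and granule sums do not, and WT MPP2 replicate 3 (open triangle) has a B-lineage sum of 591750 against 662 to 15392 in the other 6 libraries.

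Lymphoid priming genes were lower in WT MPP2 as a set of values, though few passed. Of 18 genes 16 were kept. Of these, Flt3 and Sox4 fell in WT MPP2 and none rose, so 2 of 16 fell against 0.176% of all genes. Flt3 is also among the antigen genes above. The labels do not give the gates, so whether its fall is a check rather than a result cannot be told. All 16 had a fold change below 0, with a median of -2.93, and 8 of 16 had non-overlapping groups with WT MPP3 above, against 3.92% of all genes tested. In 15 of the 16 genes WT MPP2 replicate 3 was nearer on the log2 scale to the WT MPP3 mean than to the mean of WT MPP2 replicates 1 and 2. The same held for 15 of the 18 megakaryocyte and red-cell factor genes and for 13 of the 30 platelet genes. It was not counted over all genes tested, so it cannot be called particular to lymphoid priming. Without WT MPP2 replicate 3, 11 of the 16 fell, and without any 1 of the other 6 libraries none passed. With edgeR none of the 16 passed, and with DESeq2 3 fell.

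Flt3, the cytokine receptor gene of lymphoid-primed progenitors, had 94.4, 138 and 4080.4 in WT MPP2 against 6518, 13242, 6762 and 8525 in WT MPP3. Replicates 1 and 2 of WT MPP2 were far below all WT MPP3 libraries, and replicate 3 lay just under them. The log2 fold change was -4.47 ± 0.89 (SE, adjusted p in limma = 0.0332). Dntt, the terminal transferase of antigen receptor assembly, had 0, 11 and 7258 in WT MPP2 against 8698, 16951, 6714 and 5950.4 in WT MPP3. Replicate 3 fell within the range of WT MPP3, and the log2 difference of -7.63 did not pass (limma adjusted p = 0.172). Without replicate 3 it was -11.3 and passed (limma adjusted p = 0.00266). Notch1, the receptor that starts T-cell development, had 42.8, 31 and 337 in WT MPP2 against 395, 582, 583 and 566 in WT MPP3, and missed the threshold (limma adjusted p = 0.0566), which it passed without WT MPP2 replicate 3 (limma adjusted p = 2.34e-04).

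Sox4, a transcription factor needed for early B cells, had 1378, 1271 and 3216 in WT MPP2 against 6029.9, 5729, 4669.5 and 3840.4 in WT MPP3, with a log2 fold change of -1.49 ± 0.31 (SE, adjusted p in limma = 0.0446). Lck, a kinase of T-cell receptor signalling, had 122, 65 and 422 in WT MPP2 against 689.9, 1538, 1225 and 456 in WT MPP3, with a log2 fold change of -2.54 ± 0.54 (SE, adjusted p in limma = 0.0446). Lck was the 1 of 7 kept T and NK cell genes that passed, and Cd3e and Cd3g, which define T cells, were at 0 in all 7 libraries. WT MPP2 replicate 3 was the highest of its group for both Sox4 and Lck, and close to the lowest WT MPP3 library.

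**Figure D3:**
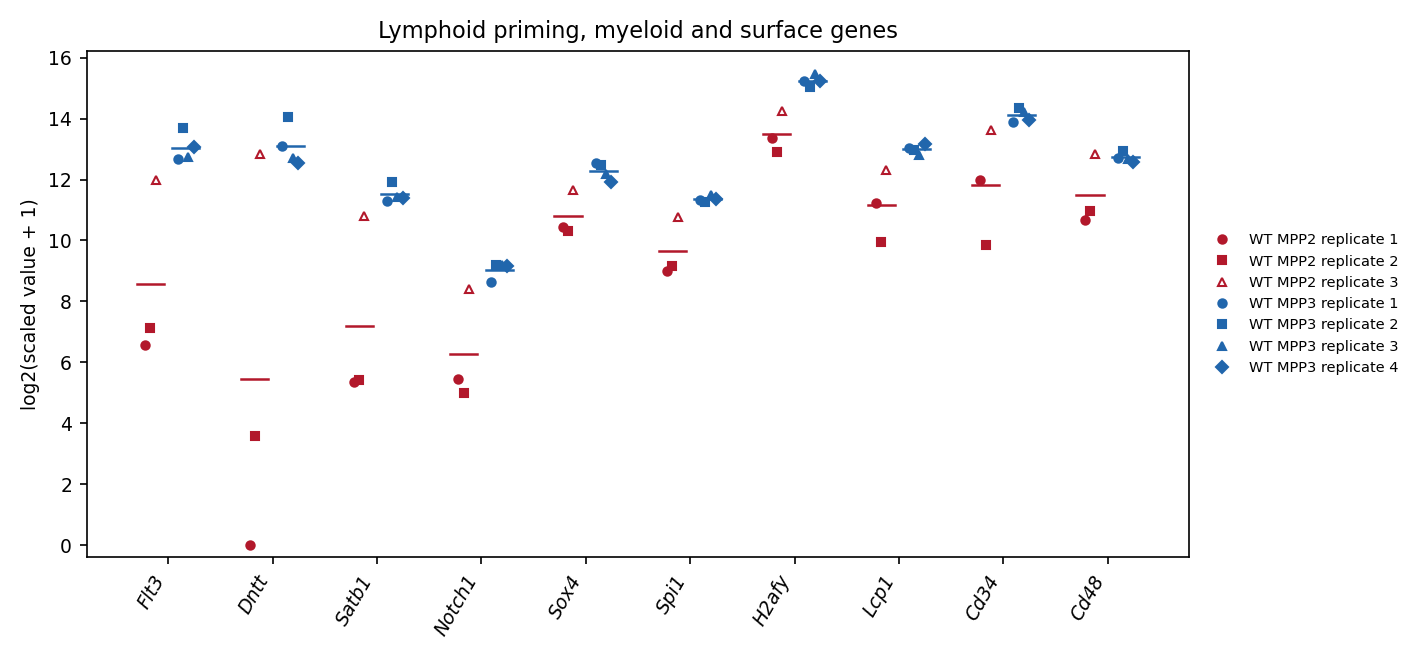
Log2(scaled value + 1) of 10 lymphoid, myeloid and surface genes in WT MPP2 (red, n = 3, left of each pair) and WT MPP3 (blue, n = 4). Each symbol is 1 library and bars are group means, and the open triangle, WT MPP2 replicate 3, is the highest red symbol in each of the 10 genes, for example at 4080.4 for Flt3 before the log.

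Spi1, which encodes PU.1, a master factor of myeloid and lymphoid cells, had 511, 566 and 1758 in WT MPP2 against 2572, 2478, 2864 and 2623 in WT MPP3. The WT MPP3 libraries were within a narrow range and the log2 fold change was -1.72 ± 0.33 (SE, adjusted p in limma = 0.0264). It was the 1 of 15 kept myeloid transcription factors that passed, and 14 of the 15 had a negative fold change, with a median of -1.52. Cebpa, the granulocyte factor, had 55.9, 11 and 23.6 in WT MPP2 against 105, 52.8, 285 and 244 in WT MPP3, and Irf8, the monocyte and dendritic cell factor, had 387, 270.2 and 1289 in WT MPP2 against 2821, 1145, 1516 and 2769 in WT MPP3. Both overlapped between the groups and did not pass (limma adjusted p = 0.396 and 0.702). Gfi1, a repressor of stem and myeloid progenitors, had 3.5, 0 and 282 in WT MPP2 against 468, 308, 444 and 451 in WT MPP3 without passing (limma adjusted p = 0.18). Cd34, a progenitor antigen, had 4071, 918 and 12660.4 in WT MPP2 against 15282, 20986, 19030.0 and 15894 in WT MPP3 (limma adjusted p = 0.0978), and its groups did not overlap. Both Gfi1 and Cd34 passed as lower without WT MPP2 replicate 3 (limma adjusted p = 0.00585 and 0.00148).

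H2afy, which encodes the histone variant macroH2A1, was the named fall that was lost in no other setting than the fit of 7 libraries. H2afy had 10426, 7601 and 19483 in WT MPP2 against 38838, 33963, 44863 and 38798 in WT MPP3, with a log2 fold change of -1.75 ± 0.21 (SE, adjusted p in limma = 5.04e-04). All WT MPP3 libraries lay above all WT MPP2 libraries, and replicate 3 was the highest of WT MPP2. Other genes that fell were Lcp1, Pstpip1 and Fgd2. Lcp1, the L-plastin that bundles actin, had 2425, 979.7 and 5132 in WT MPP2 against 8449.7, 8029, 7235 and 9215 in WT MPP3, with a log2 fold change of -1.83 ± 0.36 (SE, adjusted p in limma = 0.0332). Gm15629, antisense to Lcp1, fell as well (-2.06 ± 0.43 (SE, adjusted p in limma = 0.0416)) and cannot be told apart from it. Pstpip1, a cytoskeletal adaptor of white blood cells, had 245, 169 and 620.2 in WT MPP2 against 1047, 1175, 1409.5 and 972 in WT MPP3 (-1.95 ± 0.37 (SE, adjusted p in limma = 0.0257)). Fgd2, an activator of the GTPase Cdc42, had 248, 135 and 479.6 in WT MPP2 against 896, 906, 2270.2 and 1056 in WT MPP3 (-2.22 ± 0.40 (SE, adjusted p in limma = 0.0173)).

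Other genes that fell included transporters and immune signalling genes. Tmem173, the DNA-sensing adaptor STING, had 344, 82.1 and 1171 in WT MPP2 against 2116, 3474, 2827 and 2428 in WT MPP3, with a log2 fold change of -3.05 ± 0.65 (SE, adjusted p in limma = 0.0446). Slc43a2, an amino acid transporter, had 69.9, 47 and 123 in WT MPP2 against 405, 641, 390.2 and 514 in WT MPP3, with a log2 fold change of -2.67 ± 0.45 (SE, adjusted p in limma = 0.0114). Slc16a7, a monocarboxylate transporter, had 0.874, 32 and 21.3 in WT MPP2 against 231, 236, 430.3 and 129.8 in WT MPP3, with a log2 fold change of -4.41 ± 0.90 (SE, adjusted p in limma = 0.0387). In the 3 genes the highest WT MPP2 library lay below the lowest WT MPP3 library. Akna, Ckap4, Gm17509, Plppr3 and Sh2d5 fell by log2 differences of -2.26, -1.90, -2.90, -1.87 and -1.73. Plppr3 overlaps Prtn3, a granule protease gene, on the other strand, Gm17509 overlaps Emb on the other strand and Sh2d5 overlaps Kif17 on the same strand.

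Reads were at 0 in all WT MPP2 libraries for 4 of the 30 lower genes. Against a floor of 3 reads over the group, Slamf6, a SLAM-family receptor, was at least 82.9-fold lower in WT MPP2, Tnfrsf11a, the receptor RANK, at least 39.9-fold lower and Lrrn4, a leucine-rich repeat gene, at least 37.4-fold lower. In WT MPP3, Slamf6 had 73.6, 96.7, 109 and 58.6, Tnfrsf11a had 38.3, 25.1, 65.9 and 33.4 and Lrrn4 had 49.4, 42.7, 28.5 and 31.6. The remaining gene, ENSMUSG00000092222, has no symbol and was at least 20.9-fold lower.

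Values of cell-cycle genes leaned to WT MPP2, but none passed by limma. All 22 mitosis genes were kept, of which 21 had a fold change above 0, with a median of 0.85, and 8 had WT MPP2 above WT MPP3 without overlap, against 4.04% of all genes. Mki67, the proliferation antigen, had 3813, 4384 and 3489.7 in WT MPP2 against 2621, 1364, 2186 and 2789 in WT MPP3 (limma adjusted p = 0.24), and Cdk1, the mitotic kinase, had 5915, 5291 and 4571 in WT MPP2 against 3965, 1501, 2255 and 3399 in WT MPP3 (limma adjusted p = 0.209). WT MPP3 replicate 2 was the lowest of the 7 libraries in 19 of the 22. How often it was lowest over all genes tested was not counted, so this cannot be called particular to mitosis genes. Of 25 DNA replication genes, 23 had a fold change above 0, with a median of 0.30. An unadjusted limma p under 0.05 was reached by 6 of the mitosis and 5 of the replication genes, against 9.59% of all genes tested. None passed by edgeR, and 1 replication gene rose by DESeq2.

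Fold changes below 0 were seen for 12 of 12 kept dendritic cell genes (median -1.15) and 16 of 16 immediate early genes (median -0.81). They were also seen for 18 of 22 interferon response genes (median -0.48) and 19 of 25 cytokine receptor genes (median -0.70). Of the cytokine receptor genes Flt3, which is also an antigen gene, passed. None of the dendritic, immediate early or interferon genes passed by limma, edgeR or DESeq2. Of these lists 2, 2 and 3 genes had an unadjusted limma p under 0.05, against 9.59% of all genes tested. In the fit without WT MPP2 replicate 3, limma gave 2 dendritic, 3 interferon and 6 cytokine receptor genes that fell, and the immediate early median became 0.013. Jund, an AP-1 subunit and early response gene, had 3839, 2771 and 233 in WT MPP2 against 3659.5, 209, 4191 and 1941 in WT MPP3. Its 2 lowest libraries were those of the 52 to 54 title range. None of 13 kept B-lineage genes or of 10 kept mast cell, basophil and eosinophil genes passed by limma or edgeR. At an unadjusted limma p under 0.05 were 3 and 5 of them, against 9.59% of all genes tested. DESeq2 gave 1 B-lineage gene lower and 2 mast cell genes higher. By limma, 1 B-lineage gene fell and 1 mast cell gene rose without WT MPP2 replicate 3. The mast cell list had a median log2 fold change of 2.87, which became -0.65 under the stricter filter on low values. Of the 10 kept genes of this list, 7 had a fold change above 0 and 3 below 0. Groups did not overlap for 3 with WT MPP2 above and for 1 with WT MPP3 above. Fcer1a, a chain of the IgE receptor, had 129, 38 and 43.7 in WT MPP2 against 0 in WT MPP3. Mcpt8 lay the other way, at 26.2, 3 and 69.7 in WT MPP2 against 260, 107, 82 and 1087 in WT MPP3. Neither gene passed (limma adjusted p = 0.134 for Fcer1a and 0.240 for Mcpt8).

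**Figure D4:**
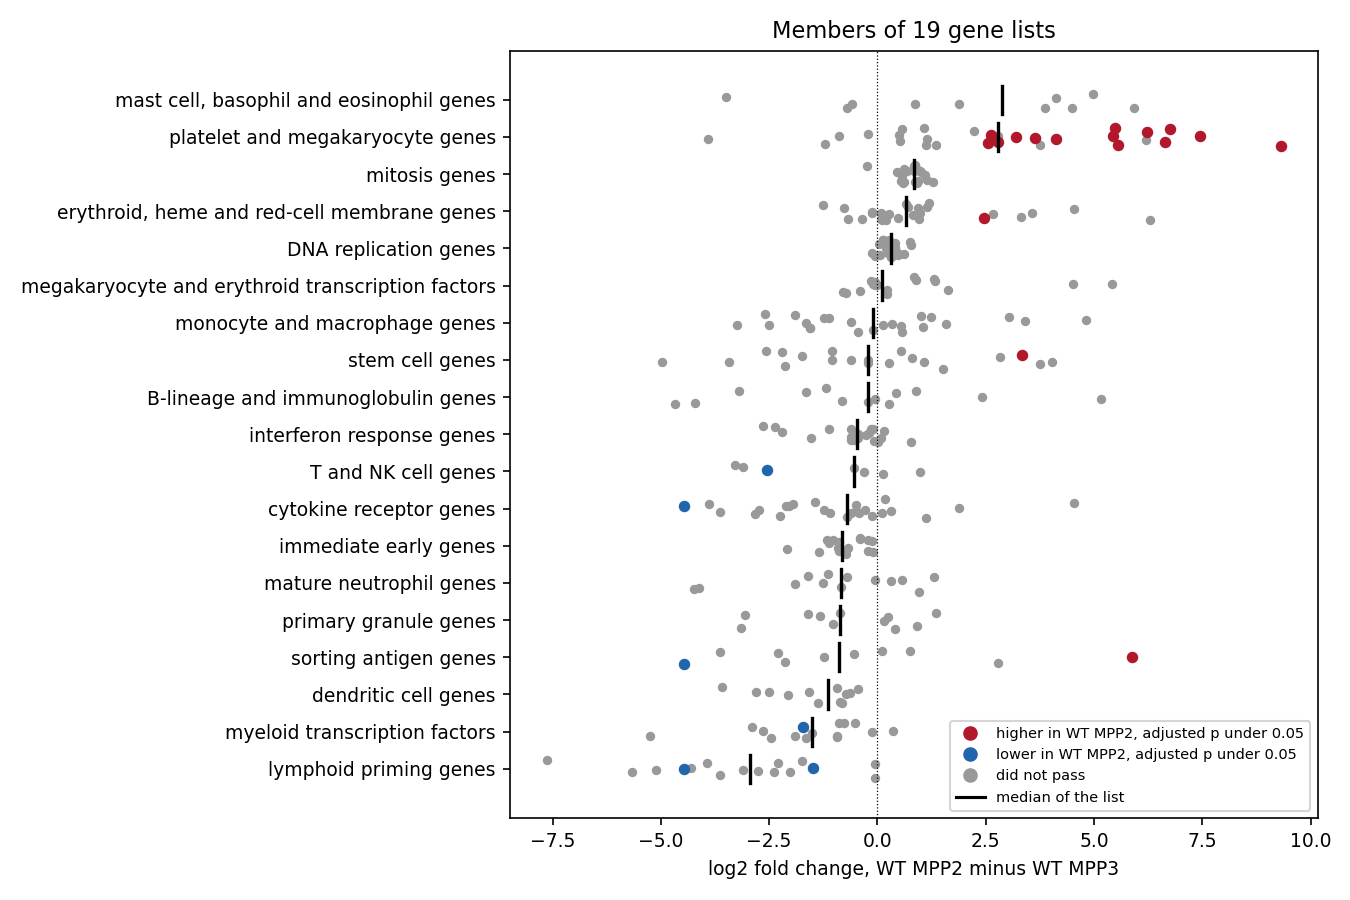
Log2 fold change (WT MPP2 minus WT MPP3) of every kept member of 19 gene lists, 1 point per gene, with the list median as a bar. Coloured points passed limma's adjusted p under 0.05. Among them 14 of the 30 platelet and megakaryocyte genes are red, while in most other lists at most 1 gene is coloured. The lists were chosen with earlier results of these data known.

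The same contrast was then read in the KO libraries, whose values do not enter the WT fold changes but share the fit's estimate of spread. Between KO MPP2 and KO MPP3, 478 genes passed, which is 2.81% of those tested, with 115 higher (0.677%) and 363 lower (2.14%) in KO MPP2. All 74 genes that passed in WT had the same sign in KO. The share with the same sign over all genes tested was not counted. Of the 44 higher genes 32 also passed in KO, and of the 30 lower genes 26 did, which together are 58 genes, 78.4% of the WT genes and 12.1% of the KO genes. The median log2 fold change of the 44 was 2.81 in KO and 3.04 in WT, and that of the 30 was -2.03 in KO and -2.0 in WT, beside medians over all genes of -0.149 in KO and -0.0048 in WT. Platelet and megakaryocyte genes had 16 members higher and none lower in KO MPP2, and lymphoid priming genes had 9 lower and none higher.

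Per library, Pf4 had 55774, 46481 and 6536 in KO MPP2 and 132, 40.6 and 42.7 in KO MPP3. Flt3 had 268, 410.3 and 226 in KO MPP2 and 7392, 7354 and 6625 in KO MPP3. In both genes the KO groups did not overlap. The difference between populations itself differed between genotypes for 0 of 16999 genes by limma's interaction term (0%), with 740 (4.35%) at an unadjusted p under 0.05 and a smallest adjusted p of 0.474. DESeq2 gave 37 such genes and edgeR 0, and leaving out KO MPP2 replicate 2 gave 99 by limma. The log2 differences of Dcbld2 were 0.20 in KO and 4.70 in WT, those of Fam110c 0.60 in KO and 5.23 in WT, and those of Slc16a7 -0.28 in KO and -4.41 in WT. The interaction did not pass for these 3 genes, chosen after their values were seen (limma adjusted p = 1, 1 and 1).

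**Figure D5:**
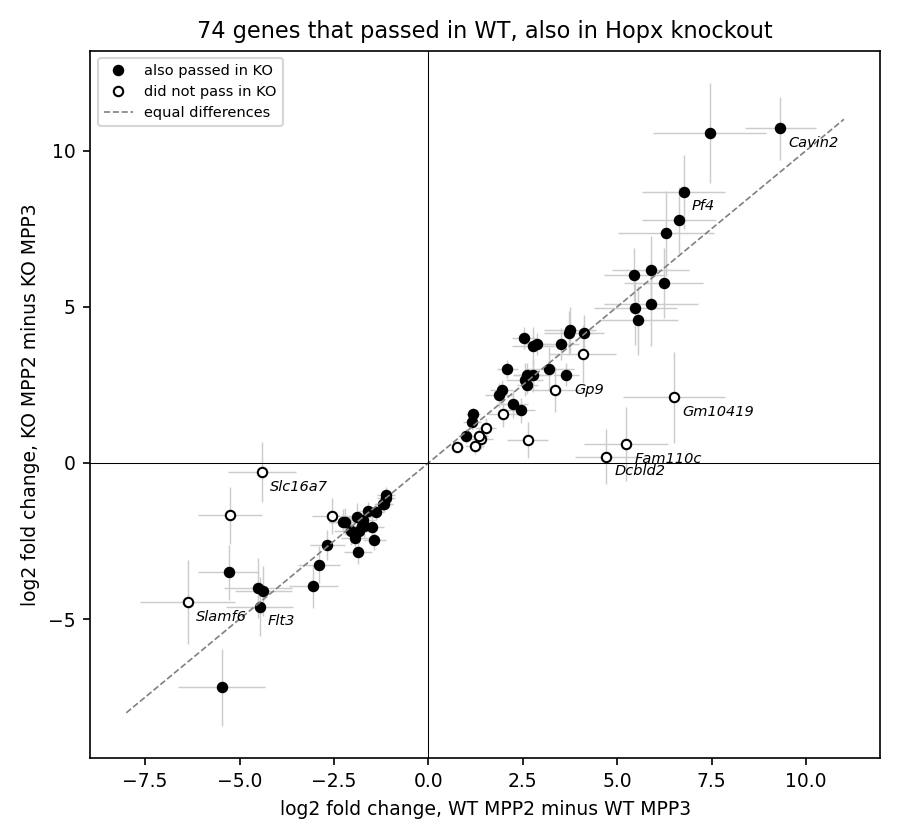
Log2 fold change of MPP2 minus MPP3 in WT (x axis) and KO (y axis) for the 74 genes that passed in WT, with standard errors as grey bars, filled where the gene also passed in KO (58 genes). All points lie in the quadrants of equal sign, and Dcbld2, Fam110c and Slc16a7 lie near 0 on the KO axis.

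The 4 WT LT-HSC libraries give a further level for the same genes, described without a test. All 44 genes higher in WT MPP2 had a WT LT-HSC mean above the WT MPP3 mean, and for 25 of them it was also above the WT MPP2 mean. Of the 30 lower genes, 29 had a WT LT-HSC mean below the WT MPP3 mean, and 21 had one above the WT MPP2 mean. These genes were chosen on the same WT MPP3 values, so the side of WT MPP3 on which WT LT-HSC lay was partly set by that choice. Such counts were not made over all genes tested, so no likeness of WT LT-HSC to either population can be read from them. Mmrn1 averaged 1945 ± 1146 in WT MPP2, 305 ± 59.8 in WT MPP3 and 7192 ± 1077 in WT LT-HSC, and Pf4 averaged 18222 ± 15479, 99.1 ± 53.5 and 8957 ± 5916 in the same order (mean ± SD, n = 3, 4 and 4). H2afy averaged 12503 ± 6207 in WT MPP2, 39116 ± 4463 in WT MPP3 and 7858 ± 176 in WT LT-HSC, so WT LT-HSC and WT MPP2 were both well below WT MPP3.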

How the data were processed

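Bone marrow populations of WT and Hopx-knockout mice were profiled by RNA-seq. Per the submitters' processing notes, the authors used TopHat2 2.1.1, HTSeq 0.11.2, DESeq and build GRCm38; their roles and order, the strand setting and the annotation release: not given in the sources used here. The deposited values are a scaled signal, which their steps show to be gene counts divided by 1 size factor per library. Each value is a whole multiple of the value of 1 read in its library (100% of values, tolerance 1e-06), so reads could be recovered, and they gave 11163345 to 15153309 reads in genes for the 7 libraries. The 5 HTSeq summary entries, which name no gene, were left out. Symbols were matched for 45143 of 45706 identifiers through GENCODE M21, and 563 were left without.

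Groups follow the sample names. Genes were kept by edgeR's filterByExpr (minimum count 10, minimum total 15), and limma 3.58.1 (R 4.3.3) fitted 6 group means over 20 libraries to log2(value + 1) with trend and robust variances, and Benjamini-Hochberg adjustment over 16999 genes at 0.05. Named genes were the 15 highest and 15 lowest fold changes among genes that passed, with a mean log2 value of at least 5 and groups that did not overlap, up to 4 members of smallest p in each list, and a fixed set of lineage genes; genes outside this rule were chosen after their values were seen. The members and lists were chosen with earlier results of these data known. The script was tested on simulated data. Alternatives were other pseudocounts (0.5, 4 and 16), filters, scalings, limma voom, edgeR 4.0.16 and DESeq2 1.42.0 on the recovered reads (49 and 276 genes called), covariates and left-out libraries; edgeR on the 18 libraries in which 1 read is not worth nearly 1 was added after seeing the data (12 genes called). Promoter windows are from a RefSeq table of GRCm38.p6. Results on some genes are not reported here.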

Additional observations from a re-analysis of the deposited data

Results flagged for a closer look

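In 9 of 106 named genes tested, 1 of the 4 WT MPP3 libraries lay so far from the other 3 that the gap, as a share of the group's range, exceeded Dixon's critical value for 4 samples. Chance flags about 1 in 20 groups. WT MPP3 replicate 2 was high for Ly6a (gap 0.932 of the range), Ifi44 (0.919) and Rtp4 (0.861), and low for Gfi1 (0.873). WT MPP3 replicate 3 was high for Gata2 (0.918) and Itga2b (0.845) and low for Tek (0.835). Replicate 4 was high for Cavin2 (1.0), where the other 3 were at 0, and replicate 1 was low for Notch1 (0.926). Gaps were taken on log2(scaled value + 1), and groups of 3, such as WT MPP2, are not tested this way.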

How the results depend on the processing

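No paired analysis was possible because the labels give no replicate numbers, the numbers used here follow accession order, and the labels do not say what consecutive title numbers share. The nearest fit, with the range of title numbers as a covariate, gave 62 genes, 39 of them among the 74. The count of genes that differed between WT MPP2 and WT MPP3 was 74 and became 0 with only the 7 libraries, 119 with a pseudocount of 16, 49 with edgeR (37 higher, 12 lower), 12 with edgeR on 18 libraries, a choice made after seeing the data that leaves out WT MPP2 replicate 2 and WT MPP3 replicate 1, 276 with DESeq2 (151 higher, 125 lower) and 270 without the libraries numbered 52 to 54. Leaving out 1 library gave 9 to 418, with 9 without WT MPP2 replicate 1, 25 without replicate 2, 418 without replicate 3, 49 without WT MPP3 replicate 1, 40 without WT MPP3 replicate 4, 49 without KO MPP3 replicate 2 and 123 without KO MPP2 replicate 3. KO libraries enter these counts only through the shared spread. The KO count was 478 and became 197 with edgeR, 188 with edgeR on 18 libraries, 882 with DESeq2 and 790 with the title number range as a covariate, and 106 to 1182 with 1 library left out. The interaction count was 0 and became 37 with DESeq2, and 0 to 99 with 1 library left out: 99 without KO MPP2 replicate 2 and 1 without WT MPP3 replicate 2 or 3. Over 112 named genes and 29 alternatives, 3228 values were computed, of which 2874 kept direction and side of the threshold, 228 lost a call and 88 gained one. The other 38 values, of 13 genes, had the opposite sign, and neither they nor the values they are set against passed. With a pseudocount of 16 Ngp was at -0.42 on the log2 scale. With edgeR the values were -4.43 for Ngp, -0.35 for Cd247 and 3.30 for Ighm, and with DESeq2 -4.46, -0.36 and 3.32. With edgeR on 18 libraries they were -5.03 for Ngp, -0.57 for Cd247, 3.84 for Ighm, 0.078 for Blnk and 0.32 for Il7r. With the title range as a covariate Hopx was at -0.51 and S100a8 at 0.55, with sex as a covariate Uty at 0.062, and without the libraries numbered 52 to 54 Uty at 0.062, Elane at -3.56 and S100a8 at 0.46. With 1 library left out the values ran between -0.14 and 3.91 for Ngp, -0.55 and 1.88 for Cd247, -4.94 and 0.18 for Ighm, -0.20 and 0.99 for Hopx, -2.21 and 0.81 for S100a8, -3.0 and 2.34 for Uty, -1.35 and 4.78 for Elane, -3.11 and 1.69 for Kdm5d, -3.92 and 2.31 for Ddx3y, -3.87 and 2.28 for Eif2s3y, and -0.10 and 0.26 for Kit. All 34 named genes that passed lost the call in the fit of 7 libraries (adjusted p 0.1 to 0.384), and Gp9, F2r, H2afy and Mmrn1 lost it nowhere else. Flt3 lost it in 10 of the other 28 settings, Spi1 in 7 and Sox4 in 12. Without WT MPP2 replicate 1, 4 platelet genes passed, without replicate 2, 8, and without replicate 3, 16. The cause of these shifts was not tested. Depth limits what can be said of genes listed at 0 reads.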
